A study of Mus musculus with 5 samples.

Results

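Secreted signals of the Wnt, BMP, TGF-beta, Notch, FGF, Hedgehog, IGF, PDGF, VEGF and EGF families were compared between adult mouse retina and newborn mouse cortex, together with their receptors and secreted inhibitors. The genes were taken by symbol, as all probes whose single annotated gene symbol begins with or equals a name of these families, without Dkk3 and Igfbp2, which the rule leaves out. The rule gave 96 genes with 130 probes, of 8944 named genes on the array. Of the 96 genes, 93 had a value on all 5 arrays for at least 1 probe, and 126 probes entered the values below. Bmp10, Fgf2 and Fgf7 had no value on array 4 and were not tested. A further Dkk1 probe had values on 3 arrays and was left out.

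The retina pool came from adult C57/B6 mice and the cortex pool from Swiss-Webster mice on postnatal day 1. Total RNA of both pools was labelled and hybridised together to 5 two-colour Agilent arrays, with retina in Cy5 and cortex, the common reference, in Cy3 on each array. No dye swap was made, so tissue, age, strain and dye change together and cannot be told apart. The labels call the arrays technical replicates of 1 pool per tissue, so errors and p-values cover repeat hybridisation of the same RNA and leave out differences among animals.

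Values are log2 ratios of retina over cortex, given as mean ± SD over n = 5 arrays, with the probes of a gene averaged on each array. The deposited values were read as log10 ratios with retina on top. Neither the base nor the direction is stated by the submitters, so both are readings of the values, dyes and titles. Were the direction opposite, every sign below would turn. The markers of the labelled tissues were read with this direction. All 4 measured photoreceptor markers were higher in retina, from 2.97 for the channel subunit Cngb1 to 4.30 for the outer segment cadherin Cdhr1. Of 4 measured cortical neuron markers, 3 were lower, among them the migrating-neuron gene Dcx at -3.99 ± 0.04 (2 probes, 1.23 log2 apart), and Neurod2 stood at -0.42 ± 0.01. Higher and lower are used only of genes that passed the 2-fold test, which is limma's treat against a log2 ratio of 1, two-sided, with Benjamini-Hochberg adjustment over 8798 genes and a threshold of 0.05. In a tissue pool, fewer cells of a type and less RNA per cell cannot be told apart.

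These families pattern the embryonic brain and eye and go on to act in mature tissue. Wnt proteins bind Frizzled and Lrp receptors and stabilise beta-catenin, while BMP, activin and TGF-beta ligands bind paired serine/threonine kinase receptors that phosphorylate Smad proteins. Notch is a receptor cleaved after contact with a Delta or Jagged ligand on a neighbouring cell. FGF, IGF, PDGF, VEGF and EGF ligands act through receptor tyrosine kinases, and VEGF and its receptors are best known in the eye for the growth of retinal vessels.

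The 2-fold test called 7 of the 93 measured genes, a share of 7.53%, where it called 6.63% of all genes. The share lay near that of the array as a whole. Higher in retina were 2 genes, the VEGF receptors Flt1 and Kdr, or 2.15% against 2.80% of all genes. Lower were 5 genes, or 5.38% against 3.83%. These were the activin subunit gene Inhba, the IGF-binding protein gene Igfbp3, the PDGF ligand gene Pdgfa, the IGF-binding protein-like gene Igfbpl1 and the intracellular FGF homologous factor Fgf13. The other 86 genes did not pass.

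**Figure D1:**
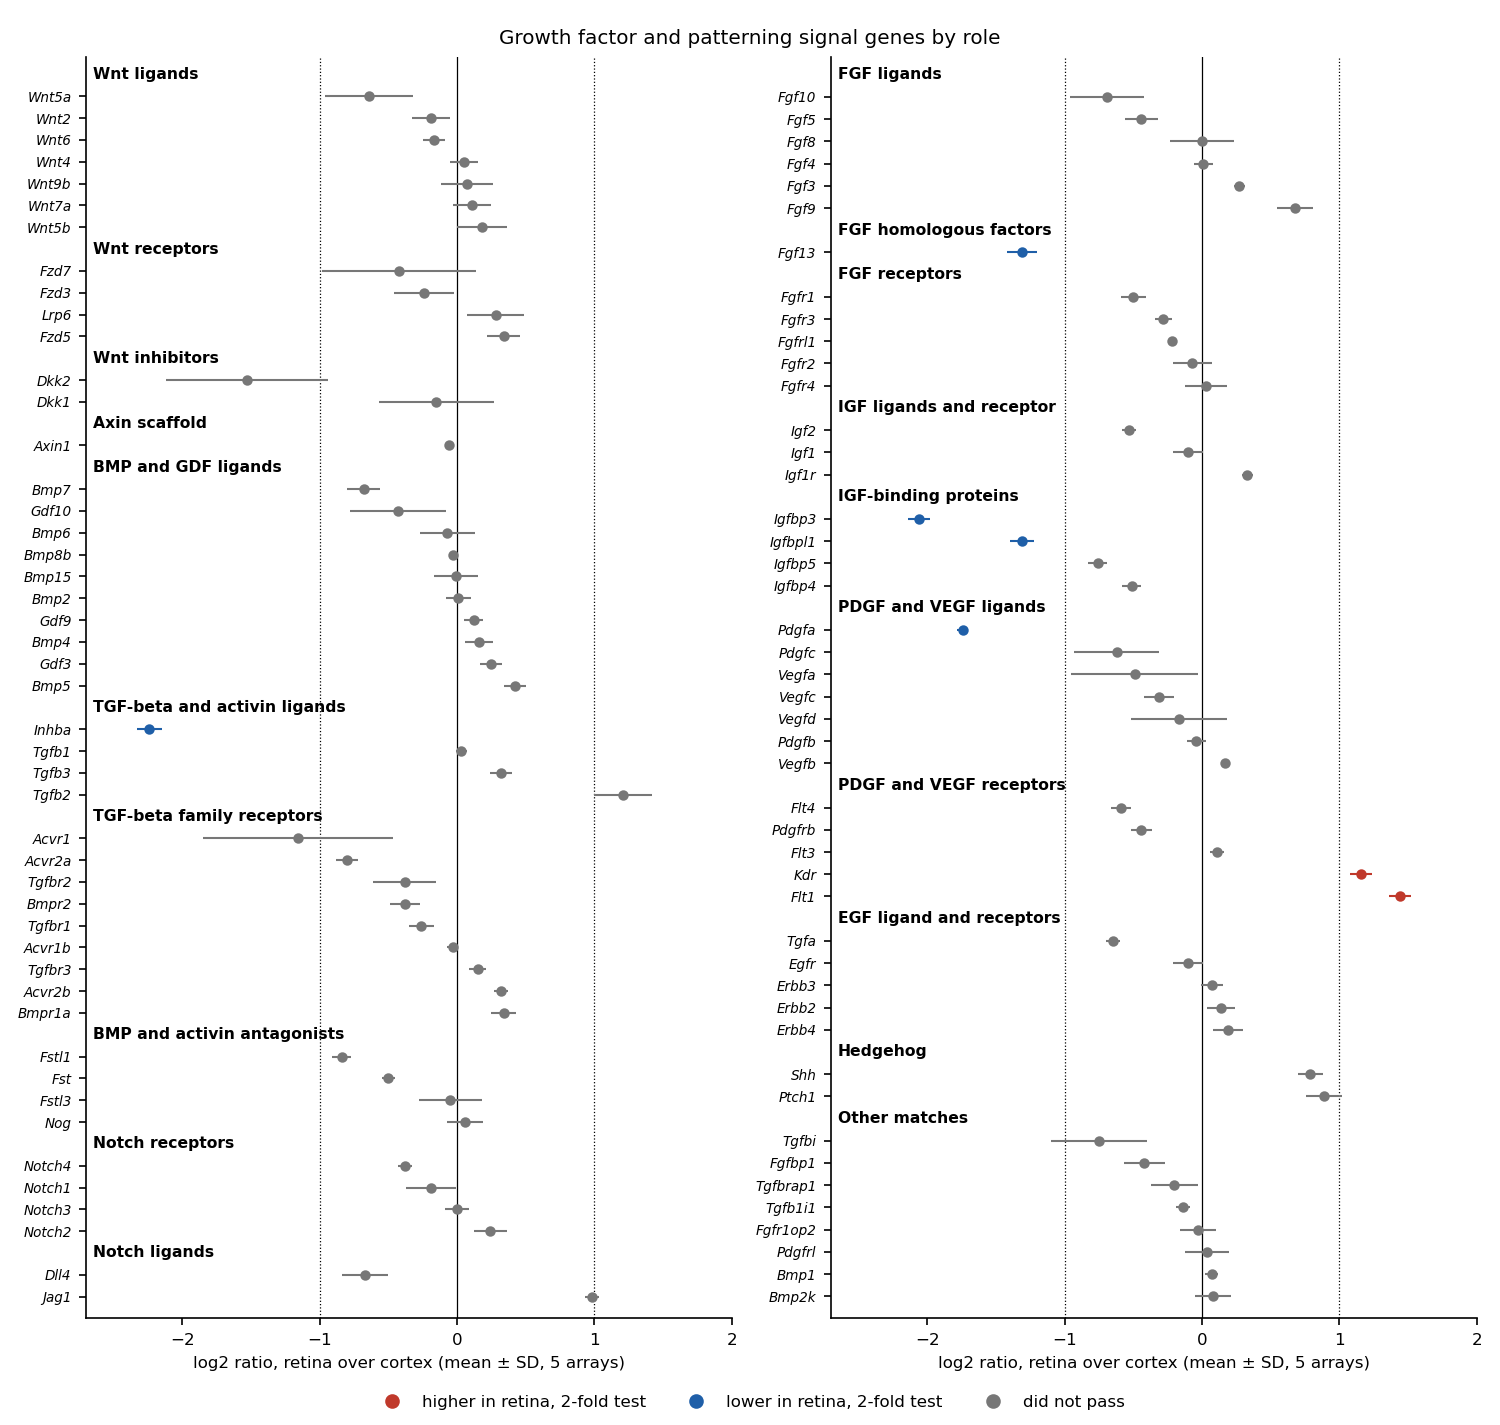
Log2 ratio of retina over cortex for each of the 93 measured genes, ordered by role and then by value, where points are means and bars are SDs over 5 arrays, and dotted lines mark 2-fold. Flt1 and Kdr lie right of the 2-fold line and Inhba, Igfbp3, Pdgfa, Igfbpl1 and Fgf13 left of it. Tgfb2, Dkk2 and Acvr1 also lie beyond the lines without passing, and 65 genes lie within 0.5 log2 of 0.

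The starts of 4 of these genes are shown, because they are the receptor pair that was higher and the pair with the lowest ratios. Each is the 250 bases before the RefSeq start on build GRCm38.p6, read in the direction of the gene. Capitals mark matches, on either strand, to 5 short motifs. The cAMP response element was searched as TGACGTCA. The site of RBPJ, the DNA-binding partner of cleaved Notch, was searched as GTGGGAA. That of the TCF/LEF factors, the partners of beta-catenin, was CTTTGAT. The GC box bound by Sp factors was GGGCGG. The TATA box of core promoters was TATAAA. No marked matches overlap.
Flt1, chr5:147726012-147726261, minus strand: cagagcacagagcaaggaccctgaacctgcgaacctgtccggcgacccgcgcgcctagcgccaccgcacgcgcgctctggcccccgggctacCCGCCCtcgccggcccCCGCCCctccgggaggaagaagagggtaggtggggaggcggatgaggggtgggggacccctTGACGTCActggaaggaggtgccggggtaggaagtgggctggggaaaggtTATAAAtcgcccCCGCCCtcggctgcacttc
Kdr, chr5:75978456-75978705, minus strand: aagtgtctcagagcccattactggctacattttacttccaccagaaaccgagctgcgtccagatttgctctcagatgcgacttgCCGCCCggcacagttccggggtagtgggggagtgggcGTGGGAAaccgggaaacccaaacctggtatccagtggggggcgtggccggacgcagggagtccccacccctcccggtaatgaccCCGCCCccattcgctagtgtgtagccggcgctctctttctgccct
Inhba, chr13:16011601-16011850, plus strand: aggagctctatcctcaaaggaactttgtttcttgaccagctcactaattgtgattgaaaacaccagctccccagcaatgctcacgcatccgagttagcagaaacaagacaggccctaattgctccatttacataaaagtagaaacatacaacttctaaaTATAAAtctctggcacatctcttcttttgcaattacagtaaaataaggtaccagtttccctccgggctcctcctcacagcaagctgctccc
Igfbp3, chr11:7213924-7214173, minus strand: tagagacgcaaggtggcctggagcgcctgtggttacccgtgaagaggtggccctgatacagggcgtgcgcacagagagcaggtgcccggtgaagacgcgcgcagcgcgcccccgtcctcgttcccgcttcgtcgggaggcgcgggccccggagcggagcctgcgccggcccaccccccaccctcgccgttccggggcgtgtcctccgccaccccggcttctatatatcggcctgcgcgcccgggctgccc
The stretch before Flt1 holds the response element 81 bases, a TATA box 31 bases and 3 GC boxes before the start, and that before Kdr an RBPJ match and 2 GC boxes. That of Inhba holds 1 TATA match, 91 bases before the start, and that of Igfbp3 none of the 5 motifs as spelled above. Variant spellings of a motif, such as the tatatat in the Igfbp3 stretch, were not searched. The G and C share was 70.4% for Flt1, 61.6% for Kdr, 43.2% for Inhba and 73.2% for Igfbp3, against a median of 52.4% over 32851 such windows. Of those windows, 1.55% held the response element, 5.42% the RBPJ letters, 3.21% the TCF/LEF letters, 32.7% a GC box and 12.4% the TATA letters. In the same order, the shares over the 88 windows of genes taken by the rule were 1.14%, 3.41%, 2.27%, 67.0% and 10.2%. A match of letters is a description and shows no binding.

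VEGF receptors were the genes of these families that were higher in retina. Flt1 encodes VEGF receptor 1, which binds VEGF-A and also has a soluble decoy form. It read 1.57, 1.47, 1.43, 1.38 and 1.36 on arrays 1 to 5, with a mean of 1.44 ± 0.08, or 2.72-fold (limma 2-fold test, adjusted p = 0.000246). Kdr encodes VEGF receptor 2, the main signalling receptor of endothelial cells. It read 1.18, 1.24, 1.08, 1.09 and 1.23, with a mean of 1.16 ± 0.08, or 2.24-fold (adjusted p = 0.0231). All 5 arrays put both genes above 2-fold, Kdr by a smaller margin. Kdr lost its call without array 1, 2 or 5, where the adjusted p was 0.0869, 0.0758 and 0.08, and the count of higher genes was then 1.

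Their ligands and relatives stood otherwise. Flt4, the VEGF receptor of lymphatic vessels, stood at -0.59 ± 0.07, and the haematopoietic receptor Flt3 at 0.11 ± 0.05. The pericyte receptor gene Pdgfrb stood at -0.44 ± 0.08. Vegfa, the main ligand of Flt1 and Kdr, read -0.07, -1.07, -0.01, -0.79 and -0.48 on arrays 1 to 5, so its mean of -0.49 ± 0.46 rests on arrays that differ by up to 1.07 log2. Vegfb stood at 0.17 ± 0.03, Vegfc at -0.31 ± 0.11 and Vegfd at -0.17 ± 0.35. None of the 4 VEGF ligand genes passed the 2-fold test.

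Vessel markers were read beside these receptors. Of 8 measured, 1 was higher, the glucose transporter Slc2a1 at 1.29 ± 0.09, as the mean of 2 probes that lay 2.48 log2 apart. The endothelial cadherin Cdh5 stood at -0.47 ± 0.04, Ramp2 at -0.51 ± 0.07, Eng at -0.53 ± 0.05, Esam at -0.10 ± 0.02, Emcn at 0.03 ± 0.08, Pecam1 at 0.14 ± 0.17 and Cd34 at -0.81 ± 0.38. None of 5 pericyte and smooth muscle markers passed, with means from -0.17 to 0.37. The part of vessel cells in the ratios of Flt1 and Kdr was not tested.

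Among PDGF ligands, Pdgfa was lower. Its product drives oligodendrocyte precursors and astrocytes. The gene read -1.73, -1.70, -1.80, -1.71 and -1.76 on arrays 1 to 5, with a mean of -1.74 ± 0.04, or 3.34-fold lower in retina (limma 2-fold test, adjusted p = 2.95e-06). Those 5 values span 0.10 log2, the narrowest span of the 7 genes that passed. Pdgfb, which recruits pericytes, stood at -0.04 ± 0.07 as the mean of probes at 0.39 ± 0.13 and -0.46 ± 0.03. Pdgfc stood at -0.62 ± 0.31, with 1 probe at -0.54 ± 0.10 and the other between -0.11 and -0.34 on arrays 1 to 3 and at -1.33 and -1.42 on arrays 4 and 5.

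**Figure D2:**
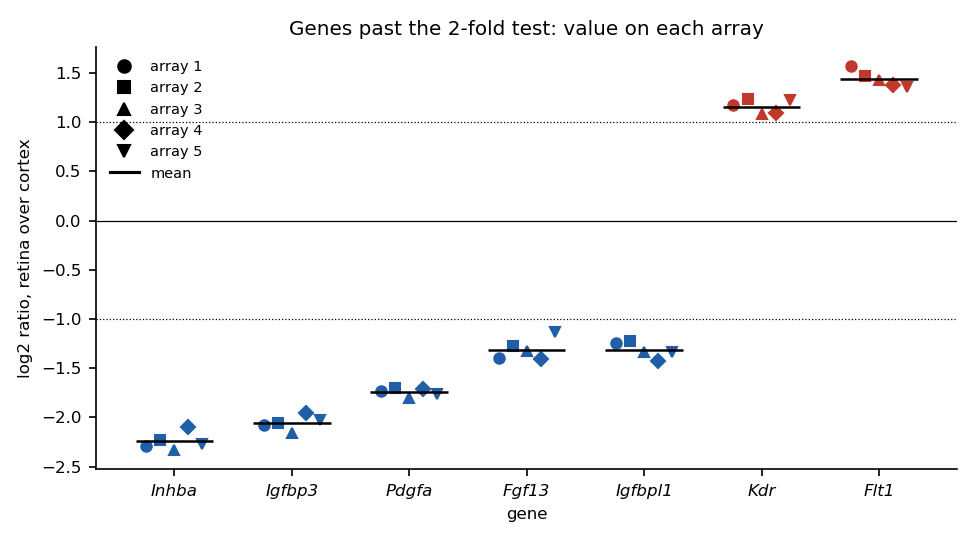
Log2 ratio of retina over cortex on each of the 5 arrays for the 7 genes past the 2-fold test, with a symbol per array, a line at the mean and dotted lines at 2-fold. Every array value lies beyond the 2-fold line, from -1.13 and below for the 5 lower genes and from 1.08 and above for Kdr and Flt1.

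The TGF-beta and activin ligands held 1 lower gene of 4. Inhba encodes the beta A subunit, whose dimer is activin A. It had the lowest ratio of the 93 genes, reading -2.29, -2.23, -2.33, -2.10 and -2.27 on arrays 1 to 5, with a mean of -2.24 ± 0.09, or 4.74-fold lower in retina (limma 2-fold test, adjusted p = 1.59e-06). All 5 arrays lay past 4-fold. Tgfb2, a TGF-beta ligand, stood at 1.21 ± 0.21 and did not pass (adjusted p = 0.271), reading 1.10, 1.04, 1.41, 1.03 and 1.47. One of its probes, at 1.22 ± 0.13, passed when probes were tested singly (adjusted p = 0.0441), and the other, with an SD of 0.39, did not. Tgfb1 stood at 0.03 ± 0.04 and Tgfb3 at 0.32 ± 0.08.

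Receptors of the family did not pass the 2-fold test in any of 9 cases, with a median of -0.26. The type II receptor gene Acvr2a, which binds activin, stood at -0.80 ± 0.08 and its relative Acvr2b at 0.32 ± 0.05. The type I receptor gene Acvr1 had the largest SD of the 93 genes, 0.69 around a mean of -1.16. It read -0.50, -0.64 and -0.84 on arrays 1 to 3 and -1.98 and -1.82 on arrays 4 and 5, so those arrays lay apart. For the BMP receptors, Bmpr1a stood at 0.34 ± 0.09 and Bmpr2 at -0.38 ± 0.11. Bmpr2 had probes of opposite sign, at 0.05 ± 0.10 and -0.81 ± 0.12, and so had Tgfbr2, at 0.21 ± 0.35 and -0.96 ± 0.15.

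None of the 10 measured BMP and GDF ligands passed, and their median was 0.00. Bmp7, a ligand needed for eye development, stood at -0.68 ± 0.12 and Bmp5 at 0.42 ± 0.08, the ends of this group. Bmp4, which sets dorsal identity in the early retina, stood at 0.16 ± 0.10. Among the secreted antagonists, the activin-binding follistatin gene Fst stood at -0.50 ± 0.05 and the related Fstl1 at -0.84 ± 0.07. The BMP antagonist noggin, Nog, stood at 0.06 ± 0.13. None of these 4 antagonists passed, and 3 of them had a mean below 0.

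The rule took 4 IGF-binding protein genes and left out Igfbp2. All 4 had negative values on every array, where 73.5% of all genes kept 1 sign on all arrays. By the 2-fold test 2 of them were lower, beside 3.83% of all genes. Igfbp3, whose product carries IGFs outside the cell, read -2.08, -2.06, -2.16, -1.95 and -2.03 on arrays 1 to 5. Its mean was -2.06 ± 0.08, or 4.16-fold lower in retina (limma 2-fold test, adjusted p = 2.36e-06). Igfbpl1, a related secreted protein, read -1.24, -1.22, -1.33, -1.43 and -1.34, with a mean of -1.31 ± 0.09, or 2.48-fold lower (adjusted p = 0.0016). Igfbp5 stood at -0.76 ± 0.07 and Igfbp4 at -0.51 ± 0.07, short of the test. The group's median was -1.03, against 0.00 over all genes, and describes these 4 genes without Igfbp2.

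The IGFs themselves were read less clearly. Igf2 had 1 probe at -1.18 ± 0.10, which passed on its own (limma 2-fold test on probes, adjusted p = 0.0399), and 1 at 0.13 ± 0.13, which gave a gene mean of -0.53 ± 0.05. Igf1 stood at -0.10 ± 0.11 and the receptor gene Igf1r at 0.33 ± 0.04. Igf2 and IGF-binding proteins are also made by meninges, and of 6 measured markers of meninges and fibroblasts 2 were lower, Postn at -1.86 ± 0.27 and Dcn at -1.35 ± 0.21. The others ran from -0.97 for Ogn to 0.52 for the collagen gene Col1a1, with Col1a2 at -0.06. The part of meningeal cells in the ratios of Igfbp3 and Igf2 was not tested.

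Fgf13 was the only FGF gene past the test. It belongs to the FGF homologous factors, which are not secreted and instead bind voltage-gated sodium channels and microtubules in neurons. It read -1.40, -1.27, -1.32, -1.41 and -1.13 on arrays 1 to 5, with a mean of -1.31 ± 0.11, or 2.48-fold lower in retina (limma 2-fold test, adjusted p = 0.00484). With arrays 2 and 4 both left out the mean was -1.28 and the call was lost (adjusted p = 0.0855). That setting was chosen after seeing the data.

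None of the 6 measured secreted FGF genes passed, and their median was 0.01. Fgf9, which promotes neural retina over pigment epithelium in the embryo, had the highest ratio of them at 0.68 ± 0.13. Fgf10 stood at -0.69 ± 0.27, between -0.53 and -0.44 on arrays 1 to 3 and at -0.99 on arrays 4 and 5. Fgf3 stood at 0.27 ± 0.04, Fgf5 at -0.44 ± 0.12, Fgf8 at 0.00 ± 0.23 and Fgf4 at 0.01 ± 0.07. Fgf2, read on 4 arrays, ran from -0.17 to 0.24 and Fgf7 from 0.04 to 0.51. Among the 5 receptor genes, Fgfr1 was farthest from 0 at -0.50 ± 0.09, with probes at -0.19 and -0.80. Fgfr3 stood at -0.28 ± 0.06 and Fgfr2 at -0.07 ± 0.14, and both had probes of opposite sign.

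In the Notch pathway, the ligand gene Jag1 had probes that disagreed. Its gene mean was 0.98 ± 0.05, reading 0.93, 0.94, 0.97, 0.99 and 1.05 on arrays 1 to 5, and it did not pass (adjusted p = 1). The mean joins 2 probes that lay 1.13 log2 apart. One read between 1.45 and 1.62, with a mean of 1.54 ± 0.07, and passed on its own (limma 2-fold test on probes, adjusted p = 6.57e-05), while the other read between 0.25 and 0.66. The endothelial ligand gene Dll4 stood at -0.67 ± 0.17.

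The means of the 4 Notch receptors lay between -0.38 and 0.24. Against a ratio of 0, limma's eBayes called 3 of them, beside 73.7% of all genes. Notch2 stood at 0.24 ± 0.12, Notch3 at 0.00 ± 0.09, Notch1 at -0.19 ± 0.18 and Notch4, a receptor of endothelial cells, at -0.38 ± 0.05. None passed the 2-fold test.

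No Wnt gene passed the 2-fold test. The 7 Wnt ligands had a median of 0.05, from -0.64 ± 0.32 for Wnt5a, a ligand of beta-catenin-independent signalling, to 0.18 ± 0.18 for Wnt5b. Between them lay Wnt2 at -0.19, Wnt6 at -0.17, Wnt4 at 0.05, Wnt9b at 0.07 and Wnt7a at 0.11. The receptor gene Fzd5, which is needed for eye development, stood at 0.34 ± 0.12 and the co-receptor gene Lrp6 at 0.28 ± 0.21. The Lrp6 mean joins probes at 0.59 ± 0.40 and -0.03 ± 0.07. Fzd3, with a role in axon growth, stood at -0.24 ± 0.22, and Fzd7 was at -1.41 on array 2, with the other 4 arrays from -0.36 to -0.07. The scaffold gene Axin1 of the beta-catenin destruction complex stood at -0.06 ± 0.02.

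Dkk2, a secreted Wnt inhibitor, had the lowest mean of the Wnt genes and did not pass, at -1.53 ± 0.59 (limma 2-fold test, adjusted p = 0.321). It read -0.88 and -0.89 on arrays 1 and 3 and -2.03, -1.93 and -1.93 on arrays 2, 4 and 5. The arrays thus fell into 2 sets about 1 log2 apart, with all 5 below 0. Dkk1 stood at -0.15 ± 0.42 and crossed 0.

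Both Hedgehog genes had positive means on all 5 arrays. Shh, the ligand that ganglion cells secrete in the developing retina, read 0.65, 0.83, 0.80, 0.90 and 0.79, with a mean of 0.79 ± 0.09. Ptch1, its receptor and a transcriptional target of the pathway, stood at 0.89 ± 0.13. Neither passed as a gene. Of the 2 Ptch1 probes, 1 stood at 1.21 ± 0.04 and passed on its own (limma 2-fold test on probes, adjusted p = 0.00212), and the other stood at 0.57 ± 0.26. The pathway's target genes Hhip and Gli1, outside the symbol rule, had negative means of -0.69 ± 0.12 and -0.27 ± 0.12 and did not pass.

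No gene of the EGF group passed. The ligand gene Tgfa stood at -0.65 ± 0.05 and the receptor genes at -0.10 ± 0.11 for Egfr, 0.14 ± 0.10 for Erbb2, 0.07 ± 0.08 for Erbb3 and 0.19 ± 0.11 for Erbb4. A further 8 genes match the symbol rule but act otherwise, and none passed. The extracellular matrix protein gene Tgfbi was farthest from 0 at -0.75 ± 0.35, followed by the FGF carrier Fgfbp1 at -0.42 ± 0.15. Bmp1, which encodes a procollagen protease rather than a BMP, stood at 0.07 ± 0.05, and Tgfb1i1, Tgfbrap1, Fgfr1op2, Pdgfrl and Bmp2k ran from -0.20 to 0.08.

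Single probes were compared because 28 of the genes had several. The 2-fold test called 11 of 126 probes, a share of 8.73%, where it called 6.77% of all 11500 probes. They belonged to 11 genes, 5 higher and 6 lower, which adds Jag1, Ptch1, Tgfb2 and Igf2 to the 7. Over all probes 2.79% were higher and 3.98% lower. The median range of probe means was 0.38 log2, the same as over the 2086 genes with several probes. The range exceeded 1 log2 for 3 genes, Igf2, Tgfbr2 and Jag1, or 10.7%, against 12.9% of all such genes. The probes differed in sign for 13 of the 28 genes, and the share over all genes was not counted. These were Bmp1, Bmp15, Bmp2k, Bmpr2, Egfr, Fgf8, Fgfr2, Fgfr3, Igf1, Igf2, Lrp6, Pdgfb and Tgfbr2, several of them with gene means near 0. All 7 genes that passed rest on 1 probe each, so no second probe was there to compare.

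**Figure D3:**
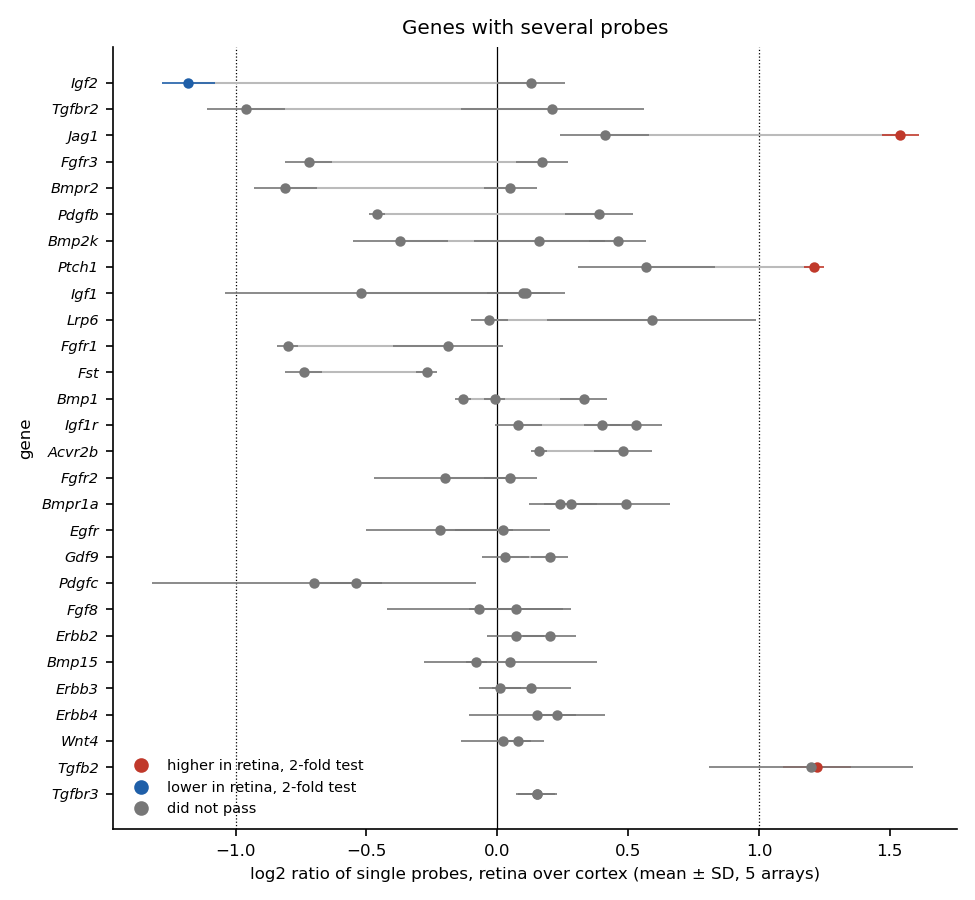
Log2 ratio of retina over cortex of each probe (mean ± SD, 5 arrays) for the 28 genes with several probes, ordered by the distance between their probes and joined by grey lines, with dotted lines at 2-fold. Igf2, Tgfbr2 and Jag1, at the top, have probes more than 1 log2 apart, while both Tgfb2 probes stand right of the 2-fold line.

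The series' design text gives variation within a platform as the purpose of the repeats. The median SD of the 93 genes was 0.0967 log2, against 0.0852 over all genes, and 66 had the same sign on all 5 arrays, or 71% against 73.5%. An SD above 0.3 was found for 10 genes, or 10.8% against 7.01% of all genes. These were Acvr1, Dkk2, Fzd7, Vegfa, Dkk1, Tgfbi, Vegfd, Gdf10, Wnt5a and Pdgfc. For Acvr1, Dkk1, Fgf10 and Pdgfc both arrays 4 and 5 read more than 0.3 log2 below the other 3, which held for 4.3% of the 93 genes and 1.06% of all genes. For Fzd7, Wnt5a, Tgfbi, Bmp6 and Lrp6 array 2 alone read that far below the rest, or 5.38% against 4.88%. These patterns were chosen after the values were seen.

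**Figure D4:**
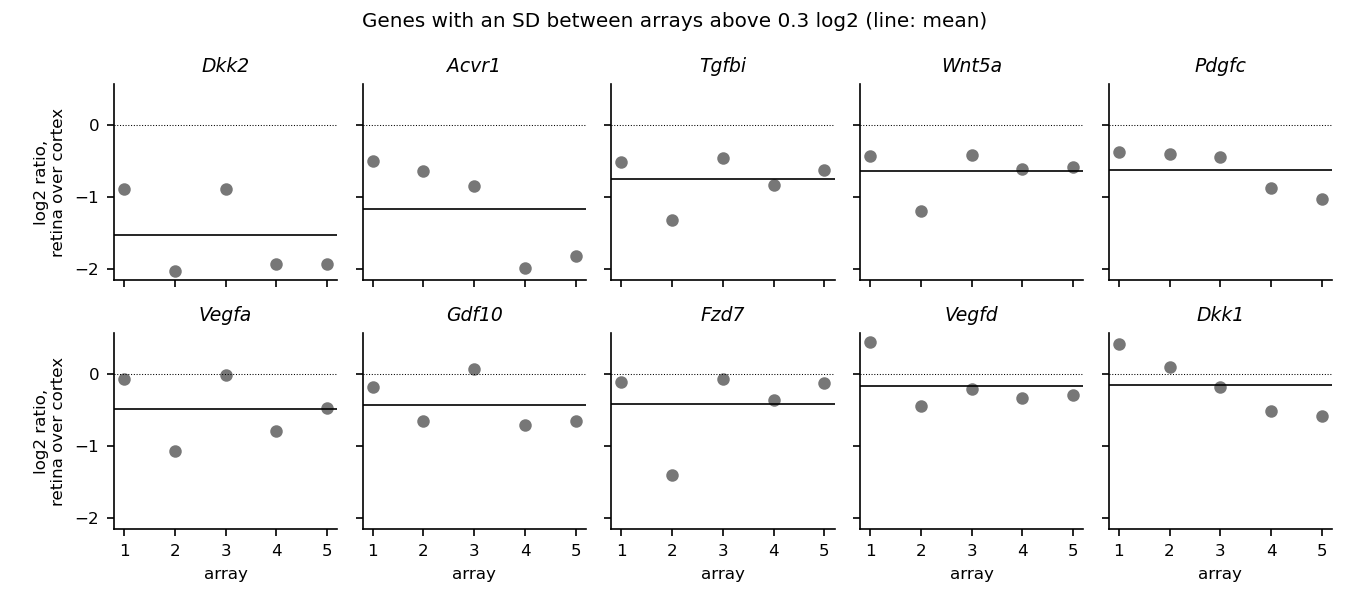
Log2 ratio of retina over cortex on arrays 1 to 5 for the 10 genes with an SD above 0.3, with a line at the mean and a dotted line at 0. Acvr1, Pdgfc and Dkk1 read lower on arrays 4 and 5, and Fzd7, Wnt5a and Tgfbi lower on array 2.

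Against a ratio of exactly 0, limma's eBayes called 64 of the 93 genes, or 68.8%, against 73.7% of all genes, 24 above 0 and 40 below. Over all genes 37.0% lay above and 36.7% below. With no dye swap a dye effect of a probe repeats on every array and enters this count. The count thus covers ratios that repeat between arrays and cannot be split between tissue and dye. The median of the 93 genes was -0.07, with quartiles at -0.44 and 0.12, against 0.00 and quartiles at -0.30 and 0.23 over all genes. A mean within 0.5 log2 of 0 was found for 69.9% of them and 72% of all genes.

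Other genes of the same pathways were read from 6 lists, with 106 of 160 genes measured. Of these, 4 were higher and 10 lower, while 92 did not pass. Over all genes tested, 2.80% were higher and 3.83% lower, and the lists were chosen with results known, so their counts are descriptions. Wnt transduction held 3 higher genes of 29 measured, beside 2.80% of all genes, and no lower gene, beside 3.83%. These were Ctbp2, a corepressor whose locus also makes the ribbon synapse protein RIBEYE, at 1.83 ± 0.05, the TCF factor Tcf7l1 at 1.45 ± 0.16 and the R-spondin receptor Lgr4 at 1.22 ± 0.12. Lgr4 did not pass without array 2, 3, 4 or 5, with adjusted p between 0.0833 and 0.116. Beta-catenin, Ctnnb1, stood at -0.97 ± 0.15, and the median of the list was -0.28.

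The BMP and TGF-beta list, with 16 measured, held 1 higher and 1 lower gene. Smad9, a Smad of the BMP branch, was higher at 3.17 ± 0.19, or 8.98-fold (limma 2-fold test, adjusted p = 2.73e-06). Its relatives Smad1 and Smad5 stood at -0.82 ± 0.05 and -0.45 ± 0.07. Id2, an HLH inhibitor and BMP target, was lower at -2.86 ± 0.08, or 7.28-fold, while its relative Id3 stood at -0.64 ± 0.05. In the Notch list 1 of 23 genes was lower, the gamma-secretase subunit Aph1a at -1.35 ± 0.12. Without arrays 2 and 4 together the mean of Aph1a was the same and its call was lost (adjusted p = 0.0783). Of the Notch targets, Hes1 stood at 0.24 ± 0.08, Hes5 at 0.11 ± 0.03 and Hey1 at -0.03 ± 0.02. Heyl stood at -0.28 ± 0.14 and Nrarp at -0.41 ± 0.07, and Hey2 ran from -0.62 to 1.06. None of these targets passed.

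Of 8 genes of FGF and receptor tyrosine kinase feedback, the FGF receptor partner Flrt2 was lower at -1.64 ± 0.13. The feedback inhibitors Spry1, Spry4 and Dusp6 stood at -0.07, 0.06 and -0.03. Of 11 Hedgehog genes, 1 was lower, the ciliary receptor Gpr161, at -1.16 ± 0.06. Gpr161 did not pass without array 4 (adjusted p = 0.0635). The target gene Gli1 stood at -0.27 ± 0.12 and Gli3 at -0.25 ± 0.09. The ligand gene Dhh, named after its values were seen, read between 1.00 and 3.09 and did not pass.

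Among 19 measured growth factors and receptors outside the families above, 6 were lower, beside 3.83% of all genes, and none higher, beside 2.80%. The heparin-binding growth factors pleiotrophin, Ptn, and midkine, Mdk, were lower at -2.66 ± 0.12 and -1.61 ± 0.10. The receptor tyrosine kinase gene Kit and its ligand Kitl were both lower, at -1.58 ± 0.20 and -2.23 ± 0.14. Ccn3, a matrix-associated signalling protein, was lower at -2.29 ± 0.08. The VEGF and semaphorin co-receptor Nrp1 was lower at -2.06 ± 0.14, a direction opposite to that of Flt1 and Kdr, while Nrp2 stood at -0.19 ± 0.03.

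**Figure D5:**
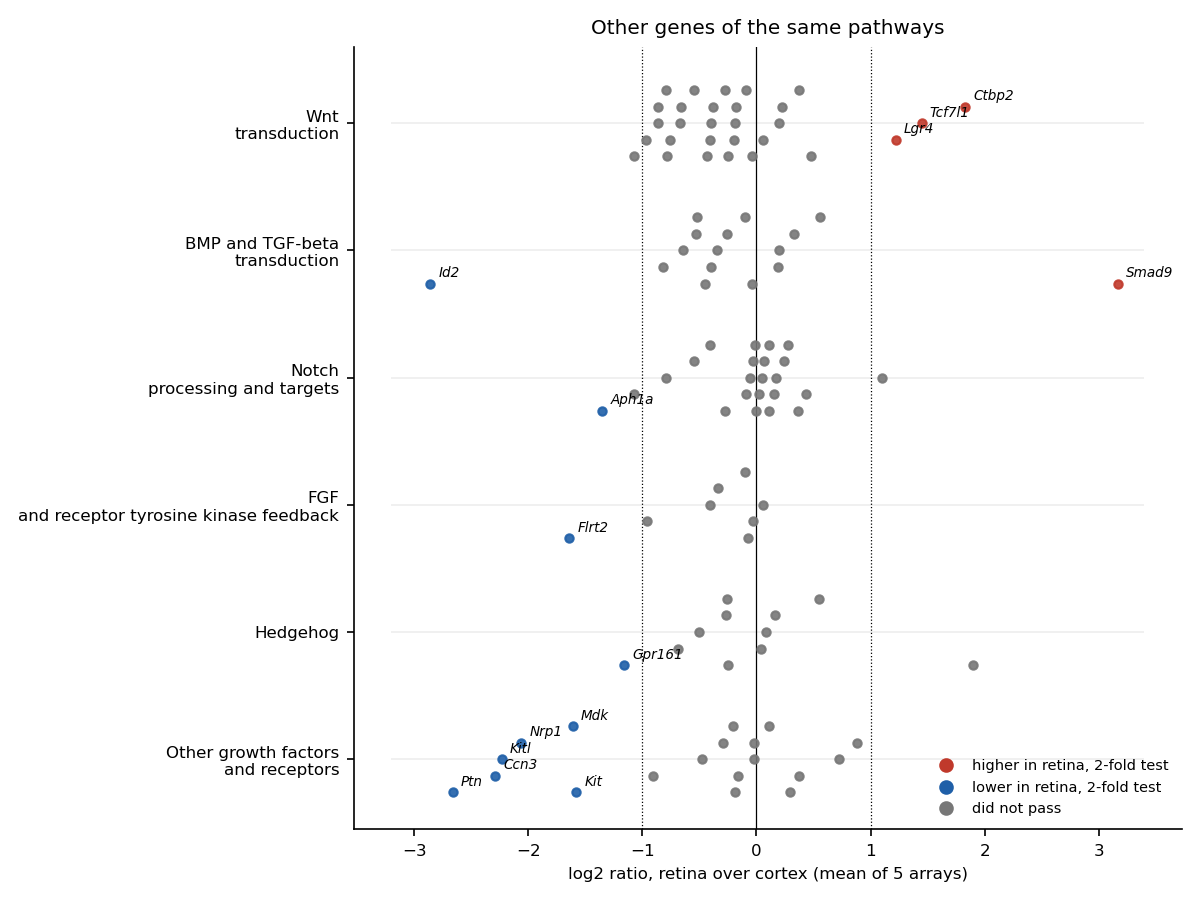
Mean log2 ratio of retina over cortex over 5 arrays for genes of 6 related lists outside the 93, with the 14 genes past the 2-fold test named and dotted lines at 2-fold. Points are spread vertically for legibility. Smad9 stands highest at 3.17 and Id2 lowest at -2.86, and the lower genes are most numerous among other growth factors and receptors.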

How the data were processed

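The deposited table holds log10 ratios, 1 column per array and 21446 probes. The base was read from the values, which stop at 2 and -2, and is not stated. For background correction, dye normalization, scanner software and genome build the entry is "not given in the sources used here". Column medians of the deposited values are 0 on arrays 1 to 4 and -7.32e-05 on array 5. The authors' values were multiplied by 3.32 to give log2, and an exact 0 was read as no value. Such zeros numbered 174 to 1068 an array, most on array 4. Of the probes, 11813 had 1 gene symbol, 559 had several and 9074 were not listed. Symbols were matched by gene identifier to RefSeq (GRCm38.p6), which named 11782. No spot brightness was read, so how far each probe lay above background is not known. The 5 arrays limit the precision of the ratio between the pools, and 1 pool per tissue gives no spread among animals. Promoter sequences are from RefSeq, where 74 of the 96 genes matched.

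Genes with a value on all 5 arrays were fitted together in limma 3.58.1 (R 4.3.3) as an intercept, with no batch or covariate, and tested with treat (2-fold) and eBayes (against 0). The fit was tested on simulated data whose unchanged genes had a log2 ratio of 0, so false calls near the 2-fold limit were not tried. Arrays of the same pools were treated as repeats, so the tests compare 2 pools. The genes, lists and tests were chosen with earlier results of these data known. Named are all genes past the test, the 2 farthest from 0 in each role group, those with a probe past the test or probes over 1 log2 apart, and pathway genes past the test. Others named are examples chosen after their values were seen. Alternatives covered arrays left out, the probe rule, zeros, missing values, scaling, centring, the prior, array weights, the minimum fold and the log base.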

Additional observations from a re-analysis of the deposited data

Results flagged for a closer look

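On 1 of the 5 arrays the following genes read far from the other 4. Among 107 genes checked in this way 11 were found, where the rule gives about 5% by chance. The share over all genes was not counted, so the number is only a description. Array 1 stood apart for 5 of them. Fstl3 read 0.34 there against -0.23 to -0.06 on the other arrays, and Vegfd read 0.44 against -0.45 to -0.21. Notch1 read -0.51 on array 1 against -0.17 to -0.05, Tgfa read -0.74 against -0.64 to -0.61, and Kitl read -2.48 against -2.22 to -2.13. Array 2 stood apart for 3 genes. Fzd7 read -1.41 there against -0.36 to -0.07, Wnt5a read -1.19 against -0.61 to -0.41, and Bmp6 read -0.43 against -0.05 to 0.06. Wnt2 read -0.43 on array 3 against -0.15 to -0.07. On array 5, Fgfr1 read -0.66 against -0.49 to -0.44, and Smad9 read 2.83 against 3.20 to 3.33. Kitl and Smad9, which passed the 2-fold test, kept their sign on all arrays.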

How the results depend on the processing

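Calls rest on the log base. Read as log2, the deposited values put 0 of the 93 genes and 0 pathway genes past limma's 2-fold test in either direction, a median of -0.02 and a median SD of 0.03, while 64 still differed from 0. A minimum of 1.5-fold gave 6 higher and 9 lower genes, and 7 higher and 19 lower pathway genes. Single probes gave 5 higher genes. The count of higher genes was 1 to 2 with 1 array left out, 1 with scale normalization, and 1 without arrays 4 and 5 or 2 and 4, since Kdr was lost (adjusted p 0.0638 with scale normalization, 0.159 and 0.146 without those pairs). The median of -0.07 ran from -0.11 to -0.05 with 1 array left out and was -0.04 without arrays 2 and 4. Leaving out these pairs was chosen after seeing the data. Apart from the log base, the 5 lower genes lost only Fgf13, without arrays 2 and 4, and Flt1 passed in each alternative. Gpr161 and Lgr4 were also lost with scale normalization (adjusted p 0.169 and 0.143) and Gpr161 with quantile normalization (0.185). No called gene changed sign. No paired analysis was possible because the arrays form 1 group, in which each ratio already sets retina against cortex on the same array.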
